A study of Mus musculus with 8 samples.

Results

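RNA of secondary granule genes of neutrophils, and of genes expressed late in neutrophil maturation, was followed in cells sorted as eosinophils from 2 tissues. The 8 genes were chosen by name among the 38392 genes measured: Camp, Ngp, Ltf, Lcn2, Chil3, Cd177, Mmp8 and Retnlg. RNA-seq compared cells sorted as eosinophils at the site of eosinophil production with those sorted from the intestine. There were 4 libraries from bone marrow (BM_1, BM_3, BM_4 and BM_5) and 4 from small intestine (SI_6, SI_7, SI_10 and SI_11), from 4 mice per tissue. The labels number the 8 samples separately and pair none across tissues. All mice were female wildtype animals of the strain C57/BL6, and no treatment is listed. Their ages are not in the labels, and the methods give 6 to 14 weeks for the animals of all experiments. Bone marrow cells were flushed and sorted as CD11b+Ly6G-Ly6C-SiglecF+SSChi. Cells of the small intestine were freed by digestion after removal of the epithelium, enriched on anti-CD11b beads and sorted as CD11b+MHC-II-SiglecF+SSChi, so that tissue, gate and handling cannot be told apart.

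Neutrophils form their granules in sequence. Primary granules with myeloperoxidase and serine proteases are filled at the promyelocyte stage, secondary granules with lactoferrin, cathelicidin and lipocalin 2 at the myelocyte and metamyelocyte stages, and gelatinase granules after that. The transcription factors C/EBP epsilon and GFI1 are needed for the secondary granule programme, and mice without C/EBP epsilon lack these granules in neutrophils and form defective eosinophils. Eosinophils carry their own secondary granules, built around major basic protein and eosinophil peroxidase, which the genes described here do not encode.

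The stretch before the transcription start is shown for 4 of the 8 genes: Ltf and Chil3, which were lower in the intestine, and Mmp8 and Retnlg, which were higher. Each line holds the 250 bases upstream of the RefSeq start, 5′ to 3′ on the strand of the gene, from RefSeq on GRCm38.p6. Capitals mark matches, on either strand, to the letters TTGCNNAA of C/EBP factors or GAGGAA of PU.1. The windows are chr9:111019042-111019291 (plus strand) for Ltf, chr3:106167565-106167814 (minus strand) for Chil3, chr9:7558179-7558428 (plus strand) for Mmp8 and chr16:48872358-48872607 (plus strand) for Retnlg.
Ltf: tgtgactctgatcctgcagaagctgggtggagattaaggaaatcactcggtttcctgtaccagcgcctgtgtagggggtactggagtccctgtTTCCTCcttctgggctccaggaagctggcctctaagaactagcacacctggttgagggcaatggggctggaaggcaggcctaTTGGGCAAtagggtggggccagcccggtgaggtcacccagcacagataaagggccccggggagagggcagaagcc
Chil3: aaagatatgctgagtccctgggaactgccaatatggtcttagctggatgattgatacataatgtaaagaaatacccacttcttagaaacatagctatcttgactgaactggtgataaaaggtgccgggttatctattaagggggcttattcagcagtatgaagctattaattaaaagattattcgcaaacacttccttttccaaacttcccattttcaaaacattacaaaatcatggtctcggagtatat
Mmp8: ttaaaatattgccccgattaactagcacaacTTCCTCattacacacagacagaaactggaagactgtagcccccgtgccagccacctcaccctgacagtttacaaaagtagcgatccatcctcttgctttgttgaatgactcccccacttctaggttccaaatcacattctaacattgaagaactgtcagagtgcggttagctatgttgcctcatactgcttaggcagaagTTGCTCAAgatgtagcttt
Retnlg: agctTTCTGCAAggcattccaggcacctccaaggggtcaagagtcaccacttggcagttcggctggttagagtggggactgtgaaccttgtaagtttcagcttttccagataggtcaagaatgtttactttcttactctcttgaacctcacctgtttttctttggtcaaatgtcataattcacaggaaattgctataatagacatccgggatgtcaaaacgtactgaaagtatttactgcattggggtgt
In the Ltf window the C/EBP letters stood at positions -75 to -68 and the PU.1 letters at -157 to -152, counted from the start. In the Mmp8 window they stood at -19 to -12 and -219 to -214. Retnlg had the C/EBP letters at -246 to -239, and Chil3 held neither motif. Of the 8 genes, 5 held the C/EBP letters (Ngp, Ltf, Lcn2, Mmp8 and Retnlg), against 9.56% of 32851 windows of the same length, and 4 held those of PU.1 (Ltf, Lcn2, Mmp8 and Cd177), against 23.3%. No match of one motif overlapped a match of another in the windows of the 8. The AP-1 letters TGANTCA were in 0 of 8 and in 6.75% of all windows. Retnlg and Mmp8, the 2 genes that rose, held the C/EBP letters, as did 3 of the 6 that fell. A match of letters is a description of the sequence and was not tested for binding.

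The 8 genes split by tissue. Of the 8, 6 fell in small intestine (Camp, Ngp, Ltf, Lcn2, Chil3 and Cd177) and 2 rose (Retnlg and Mmp8). Over all genes 12.9% were called lower and 22.0% higher in small intestine, 34.9% in all, by limma at an adjusted p under 0.05. The 38392 genes behind these shares include 22177 with a mean under 10 reads, as none of the 8 had. Without them 11824 genes were called, so that a larger share passed among better-covered genes, to which all 8 belong. Beside the 34.9% over all genes, calls of the 8 thus look rarer than they are among such genes. For each of the 8 genes the libraries of the 2 tissues did not overlap. Over all genes this was so for 13.9% with bone marrow above and for 20.3% with small intestine above. These 2 shares were not worked out for better-covered genes alone. The 6 that fell were among the 25 largest falls in the table. Differences are given on the log2 scale of the deposited values as small intestine minus bone marrow. Their median over the 8 genes was -8.18, against 0.37 over all genes. In bulk RNA, fewer cells of a type and less RNA per cell cannot be told apart.

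Camp encodes cathelicidin, the precursor of an antimicrobial peptide (ENSMUSG00000038357; GRCm38 chromosome 9, 109847379 to 109849617). Its normalised read count, which is the number of reads divided by the size factor of the library, was 25072 in BM_1, 32575 in BM_3, 26156 in BM_4 and 23142 in BM_5. In SI_6, SI_7, SI_10 and SI_11 it was 36.02, 33.28, 21.88 and 30.82. Every bone marrow library was thus far above every small intestine library, and the small intestine values rested on only 20 to 33 reads each. Mean counts of 26736 ± 4087 and 30.5 ± 6.13 (SD, n = 4 each) gave an 876.6-fold lower level in small intestine. The difference of -9.62 ± 0.22 (SE, log2 scale) passed the threshold (limma adjusted p = 1.12e-07) and was the 3rd largest fall of all genes.

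Ngp encodes neutrophilic granule protein, a secondary granule protein related to cystatins and cathelicidins (ENSMUSG00000032484; chromosome 9, 110419747 to 110423012). Normalised counts were 48242, 73517, 56299 and 50586 in BM_1, BM_3, BM_4 and BM_5. They were 73.13, 80.43, 59.07 and 80.6 in SI_6, SI_7, SI_10 and SI_11. Ngp took the most reads of the 8 genes in each bone marrow library, 0.428% ± 0.0773 of all reads in genes. From 57161 ± 11417 to 73.31 ± 10.1, the level was 779.7-fold lower in small intestine (difference -9.52 ± 0.21, limma adjusted p = 1.12e-07).

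Chil3 encodes the chitinase-like lectin Ym1, which is made by neutrophil precursors and by some macrophages (ENSMUSG00000040809; chromosome 3, 106147554 to 106167564). Bone marrow libraries had 28784, 34204, 31563 and 30390 normalised counts in the order above, the smallest relative spread of the 6 genes. Small intestine libraries had 34.93, 51.31, 42.66 and 53.34. The fall from 31235 ± 2283 to 45.56 ± 8.46 was 685.6-fold (difference -9.32 ± 0.20, limma adjusted p = 1.01e-07). Of the 75-base stretches in its exons, 13% also occur in Chil4 or the pseudogene Gm6522, so part of its reads could be shared. Chil4 itself averaged 9.264 normalised counts in marrow libraries and 12.43 in intestinal ones (difference 0.07 ± 0.70, limma adjusted p = 0.954).

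Lcn2 encodes lipocalin 2, which binds the iron-carrying siderophores of bacteria (ENSMUSG00000026822; chromosome 2, 32384633 to 32388252). Its normalised counts were 19999, 31847, 24669 and 24253 in bone marrow. In small intestine they were 50.21, 52.7, 44.85 and 29.63. The 568.1-fold lower mean (25192 ± 4913 against 44.35 ± 10.3) corresponded to a difference of -9.04 ± 0.25 (limma adjusted p = 2.27e-07). Epithelial cells can also make lipocalin 2. SI_6 and SI_7, which had the highest summed epithelial markers (33310 and 15260, against 4950 in SI_10 and 5500 in SI_11), also had the highest Lcn2 values, with SI_10 close to them. The part of epithelial RNA was not tested.

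Ltf encodes lactoferrin, the iron-binding protein after which secondary granules are often recognised (ENSMUSG00000032496; chromosome 9, 111019271 to 111042767). Normalised counts in the 4 bone marrow libraries were 8490, 15278, 13341 and 11007. Small intestine libraries had 42.57, 65.18, 94.08 and 92.45. BM_1 was lowest and BM_3 highest among the bone marrow libraries. The fall from 12029 ± 2935 to 73.57 ± 24.6 was 163.5-fold (difference -7.31 ± 0.31, limma adjusted p = 1.39e-06).

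Cd177 encodes a surface glycoprotein that is stored in secondary granules and binds PECAM1 (ENSMUSG00000052212; chromosome 7, 24743983 to 24760311). Bone marrow libraries had 3792, 5216, 4716 and 4383 normalised counts. SI_6, SI_7, SI_10 and SI_11 had 91.69, 47.15, 22.97 and 13.04. The small intestine libraries spread widely, with an SD of 1.10 on the log2 scale against a median of 0.47 for genes of like level. In bone marrow the SD was 0.19, also above the median of 0.10 for genes of like level. The 103.6-fold lower mean (4527 ± 598 against 43.71 ± 35) gave a difference of -6.88 ± 0.50 (limma adjusted p = 1.88e-05). Without SI_6 the small intestine mean was 27.72. The summed normalised count of 8 epithelial marker genes was 33310 in SI_6, 15260 in SI_7, 4950 in SI_10 and 5500 in SI_11, and that of 6 fibroblast markers was 723.7, 477.1, 216.6 and 154.1. SI_6 and SI_7 were thus highest for Cd177 and for both marker lists, and the part of these cells in the value of Cd177 was not tested. The share of its 75-base exon stretches found in other genes (BC049730 and Gm4763) was 3.58%.

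**Figure D1:**
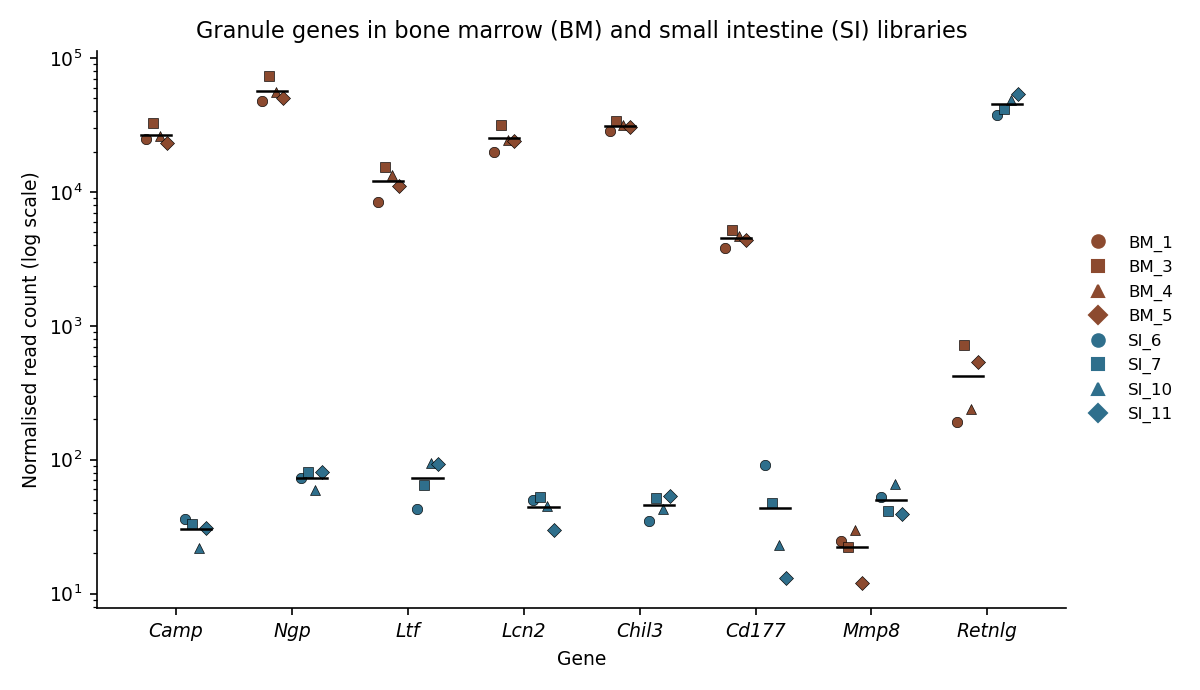
Normalised read count of each of the 8 genes (log scale) in each library, with bone marrow (BM) in brown, small intestine (SI) in blue and a bar at the mean of 4. The first 6 genes lie at 3792 or above in every bone marrow library and at 94.08 or below in every small intestine library, while Retnlg and, by a small margin, Mmp8 lie higher in small intestine.

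Retnlg moved the other way. It encodes resistin-like gamma, a secreted cysteine-rich protein of mature neutrophils and marrow (ENSMUSG00000022651; chromosome 16, 48872621 to 48874496). Normalised counts were 190.8 in BM_1, 714.7 in BM_3, 241.1 in BM_4 and 538.3 in BM_5. They rose to 37779, 41683, 48959 and 54278 in SI_6, SI_7, SI_10 and SI_11. The level was 108.4-fold higher in small intestine (421.2 ± 249 against 45675 ± 7373), a difference of 6.94 ± 0.42 (limma adjusted p = 8.06e-06), and it was the 149th largest rise. Bone marrow libraries varied more than usual for Retnlg, with an SD of 0.90 on the log2 scale against 0.16 for genes of like level. Without BM_3 the bone marrow mean was 323.4. Mmp9, the gelatinase of tertiary granules, had 41.37, 78.91, 22.01 and 60.43 normalised counts in the same 4 libraries, with BM_3 and BM_5 highest for both genes. Among eosinophil markers BM_3 and BM_5 were also highest for Ccr3, Alox15, Il5ra, Epx, Ear1, Ear2 and Ear6. They were not for Siglecf, Prg2 and Prg3. No 75-base stretch of the Retnlg exons occurs in another gene, its paralogues included.

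Mmp8 encodes neutrophil collagenase, which is made late in granule formation (ENSMUSG00000005800; chromosome 9, 7558456 to 7568485). It was low in both tissues, with 24.52, 22.17, 29.66 and 12.09 normalised counts in the bone marrow libraries. The small intestine libraries had 52.4, 41.6, 65.64 and 39.11. These values rested on 13 to 34 reads per library in bone marrow and 30 to 60 in small intestine. The mean was 2.247-fold higher in small intestine (22.11 ± 7.38 against 49.69 ± 12.1), a difference of 1.08 ± 0.29 (limma adjusted p = 0.0187). This call was lost when libraries were centred on their medians, a scaling that lowered the median difference of all genes from 0.37 to -0.53 and that of Mmp8 to 0.18 (limma adjusted p = 0.785). With quantile normalisation Mmp8 differed by 0.50 (limma adjusted p = 0.36).

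Levels of different genes were compared as normalised counts per kilobase of merged exons. In bone marrow the order was Ngp (46776 ± 9343), Camp (35272 ± 5392), Chil3 (19139 ± 1399), Lcn2 (9604 ± 1873), Ltf (3487 ± 851), Cd177 (1594 ± 210), Retnlg (710.3 ± 419) and Mmp8 (9.118 ± 3.04). Ngp and Camp overlapped between libraries, although Ngp was higher within each of the 4, and no other neighbours overlapped. Among 20623 protein-coding genes Ngp ranked between 3 and 5 in the bone marrow libraries, Camp between 5 and 8 and Chil3 between 10 and 13. Ltf ranked between 61 and 126, and Mmp8 between 9439 and 11235.

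In small intestine Retnlg stood apart at 77023 ± 12433 per kilobase and ranked 1 among the protein-coding genes in all 4 libraries. Ngp followed at 59.99 ± 8.27, a rank between 5435 and 6110. The other 6 genes lay between 40.24 ± 8.08 for Camp and 15.39 ± 12.3 for Cd177, with Chil3, Ltf, Mmp8 and Lcn2 between them. From Camp downward each gene overlapped the next one in this order. Genes further apart could still be separate, as the libraries of Camp all lay above those of Ltf, Mmp8 and Lcn2. Retnlg took 0.285% ± 0.0391 of all reads in genes in small intestine and 0.00316% ± 0.00182 in bone marrow. The 6 genes that fell together took 1.18% ± 0.176 in bone marrow and 0.00195% ± 0.000173 in small intestine.

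**Figure D2:**
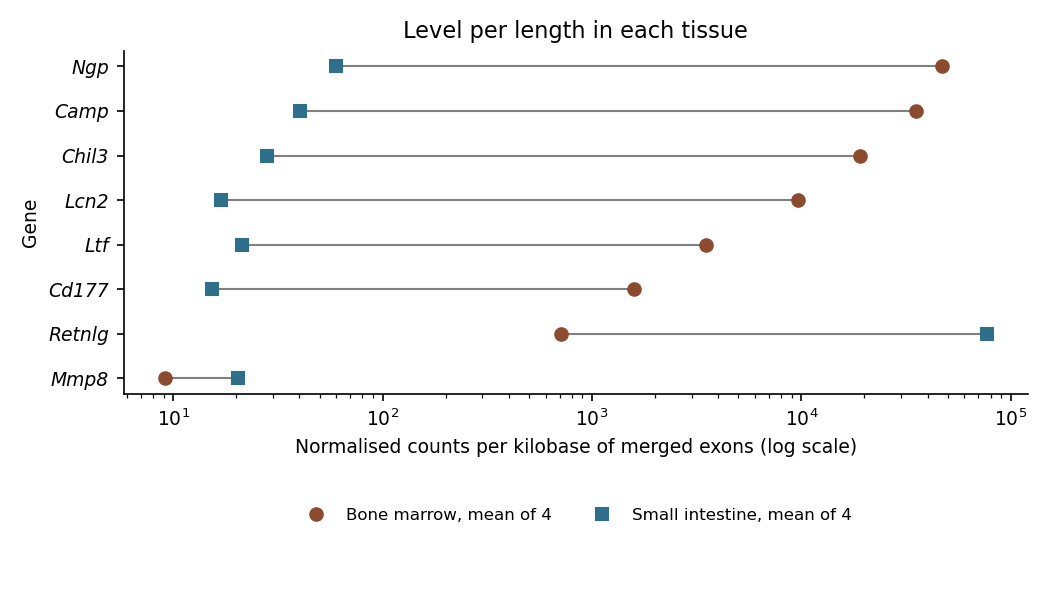
Mean level of each gene per kilobase of merged exons (log scale) in bone marrow (circles) and small intestine (squares), 4 libraries each, joined by a line. Retnlg runs from 710.3 to 77023, while Ngp runs from 46776 down to 59.99.

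Within bone marrow the 6 genes that fell had much the same highest and lowest library, and how many of all genes share this order was not counted. BM_3 was the highest of the 4 libraries for all 6 and BM_1 the lowest for 5 of 6. BM_3 was also the highest for Retnlg, so that it led 7 of the 8 genes. Over the 15 pairs of the 6 genes, the SD of the log2 ratio of normalised counts lay between 0.09 and 0.27 in bone marrow. It lay between 0.18 and 1.74 in small intestine, where reads were few. In bone marrow the single genes had SDs of 0.10 (Chil3) to 0.37 (Ltf) on the log2 scale. No pairs of other genes of like level were set beside these. For 7 of the 15 pairs the ratio overlapped between the tissues.

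Set against Mpo, the myeloperoxidase of primary granules, the genes fell into groups. Mpo averaged 149860 normalised counts across marrow libraries and 164.5 across intestinal ones. The log2 ratio of Camp to Mpo was -2.80, -2.18, -2.52 and -2.46 in BM_1, BM_3, BM_4 and BM_5 and -1.99, -2.46, -2.69 and -2.63 in SI_6, SI_7, SI_10 and SI_11, so that Camp kept nearly the same proportion to Mpo in both tissues. Ngp shifted by 0.24 and Lcn2 by 0.67 relative to Mpo, and the tissues overlapped for both. For Chil3 the shift of 0.40 was small, but the tissues did not overlap. Ltf rose relative to Mpo by 2.45 and Cd177 by 2.78 log2 units, without overlap. Retnlg and Mmp8 shifted by 16.79 and 11.05. Mmp8 itself differed by only 1.08, so that most of its shift was the fall of Mpo (-9.80). Apart from Retnlg, the genes had 11 to 86 reads in each small intestine library, which limits these ratios. These ratios were described without a test.

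**Figure D3:**
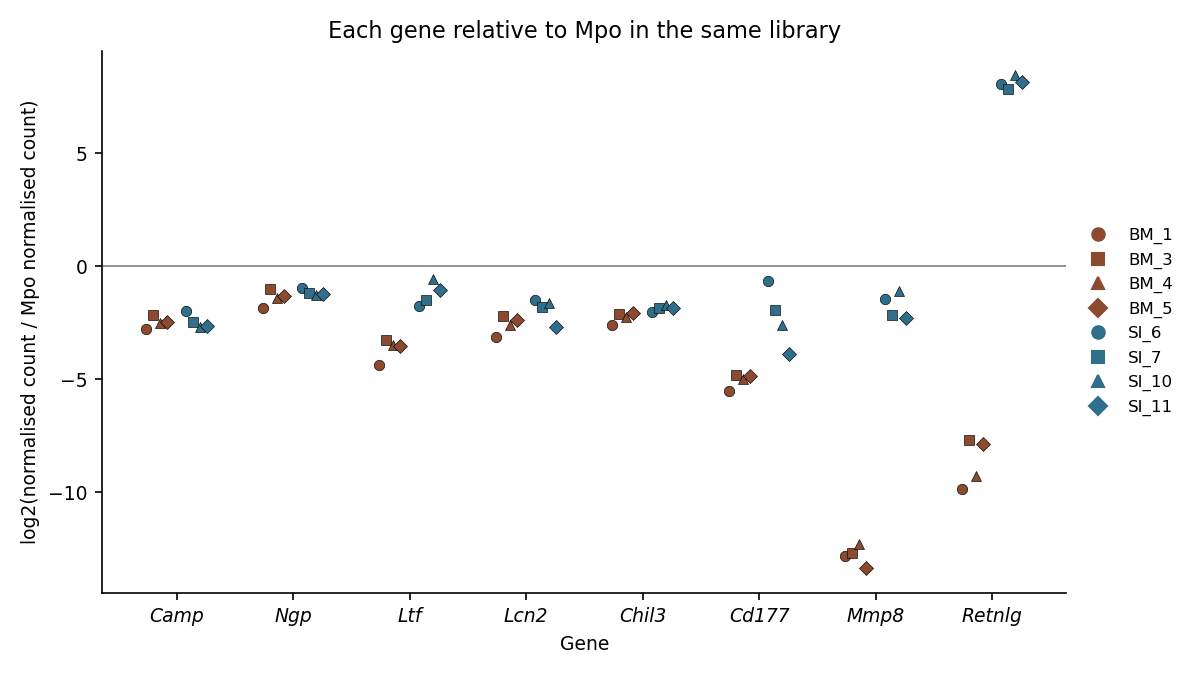
Log2 ratio of each gene to Mpo, in normalised counts, in each library, with bone marrow in brown and small intestine in blue. Camp, Ngp and Lcn2 overlap between the tissues, Chil3 is separated by a narrow gap, and Ltf, Cd177, Mmp8 and Retnlg lie higher in every small intestine library.

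Genes with a related place in granule formation were read against these results. Of the 6 primary granule genes, 5 were lower in small intestine: Elane (neutrophil elastase, -9.88 ± 0.20), Mpo (-9.80 ± 0.20), Prtn3 (proteinase 3, -9.61 ± 0.23), Ctsg (cathepsin G, -9.23 ± 0.28) and Ms4a3 (-8.28 ± 0.31). Ctsc, the protease that activates the serine proteases among them, was higher by 0.84 ± 0.22 (limma adjusted p = 0.0171). It was at -0.06 after median-centring and at 0.93 (limma adjusted p = 0.00345) after quantile normalisation. The median of the list was -9.42 against 0.37 over all genes.

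The other 17 secondary and tertiary granule genes had no common direction. Of these, 7 fell, 7 rose and 3 did not pass, with a median difference of 0.26. Fcnb (ficolin B, a lectin, -9.26 ± 0.30), Hp (haptoglobin, -7.40 ± 0.39), Anxa3 (-4.82 ± 0.21) and Lyz2 (lysozyme, -3.85 ± 0.23) were the largest or most abundant falls. The largest rises were those of Slc11a1 (a metal ion transporter, 8.52 ± 0.31), Adam8 (a membrane protease, 8.17 ± 0.33), Mmp9 (7.19 ± 0.36) and Mmp25 (a membrane-anchored matrix protease, 5.87 ± 0.24), with limma adjusted p-values between 7.53e-07 and 2.8e-06. Mmp9 went from a mean of 50.68 normalised counts to 7336. Itgam, the CD11b chain used in both sorts, rose by 1.57 ± 0.22 (limma adjusted p = 0.000702), a call lost after median-centring (0.67, adjusted p = 0.268). After quantile normalisation Itgam passed (0.93, limma adjusted p = 0.0024). Cybb, the NADPH oxidase subunit, rose by 0.78 ± 0.18 (limma adjusted p = 0.0107), yet stood at -0.12 after median-centring and after quantile normalisation. After median-centring 4 of the 17 were called higher.

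**Figure D4:**
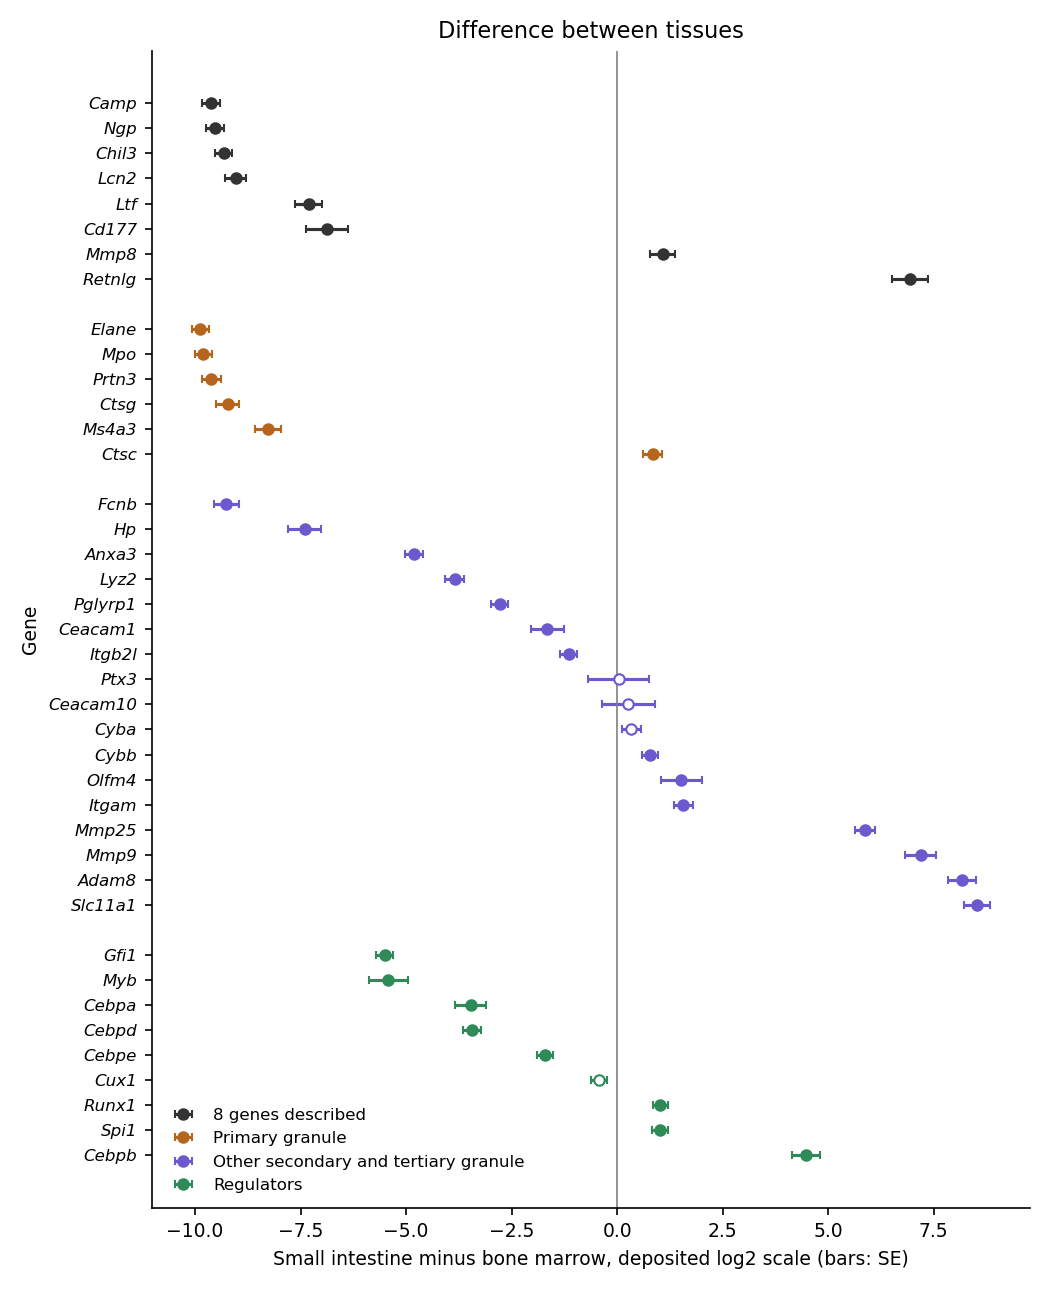
Difference between tissues (small intestine minus bone marrow, deposited log2 scale, bars SE, 4 libraries each) of the 8 genes, primary granule genes, other secondary and tertiary granule genes and regulators. Filled points passed the limma threshold and open points did not, and 6 of the 8 genes lie between -9.62 for Camp and -6.88 for Cd177. Of the filled points right of 0, only Ctsc and Cybb were left of 0 after median-centring, as were the open points Cyba, Ceacam10 and Ptx3.

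Of 9 regulators of granule genes, 5 fell, 3 rose and 1, Cux1 (-0.43 ± 0.18, limma adjusted p = 0.0923), did not pass. Cux1 passed as a fall after median-centring (-1.33, limma adjusted p = 0.0162) and after quantile normalisation (-0.98, limma adjusted p = 0.000444). It also passed with limma voom (-0.44, adjusted p = 0.000348). Gfi1, a repressor needed for neutrophil formation, fell from 1744 to 34.89 normalised counts (-5.51 ± 0.20, limma adjusted p = 7.53e-07). Cebpe had normalised counts of 1729, 1743, 1825 and 1558 in the bone marrow libraries, and 520.7, 482.6, 448.5 and 653.1 in those of small intestine. It fell by 1.71 ± 0.19 on the log2 scale (limma adjusted p = 0.000202). Its fall was far smaller than those of the 6 granule genes. Myb (-5.42 ± 0.46), Cebpa (-3.47 ± 0.36) and Cebpd (-3.43 ± 0.21) also fell. Cebpb rose from 29.54 to 737.3 normalised counts (4.47 ± 0.33, limma adjusted p = 2.07e-05). Spi1, which encodes PU.1, and Runx1 each differed by 1.02 as deposited and by 0.12, past no threshold, after median-centring, which left 1 of the 9 called higher. After quantile normalisation Spi1 passed (0.50, limma adjusted p = 0.0224) and Runx1 did not (0.39, limma adjusted p = 0.0522).

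Relatives of the 8 genes were mostly low. Of 15 paralogues, 1 fell, 7 rose and 7 did not pass. Chil1, the paralogue of Chil3, fell from 641.2 to 11.77 normalised counts (-5.68 ± 0.50, limma adjusted p = 5.22e-05). Retn, the gene of resistin, had normalised counts of 3.831, 5.217, 2.871 and 2.789 in the bone marrow libraries, and 93.87, 160.9, 128 and 91.27 in those of small intestine (4.11 ± 0.25, limma adjusted p = 7.45e-06). Like Retnlg it was higher in every small intestine library than in any of bone marrow. Trf, the plasma transferrin related to lactoferrin, rose by 3.56 ± 0.22 and Mmp13 by 3.02 ± 0.66. Mmp1a, a collagenase gene near Mmp8 on chromosome 9, was at 0.32 ± 0.58 (limma adjusted p = 0.69). With genes averaging under 10 reads left out, 4 paralogues were called higher.

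Among 10 receptors, partners and inhibitors of the encoded proteins, 1 fell, 5 rose and 4 did not pass. Pecam1, which encodes the ligand of CD177, rose from 384.2 to 8162 normalised counts (4.40 ± 0.21, limma adjusted p = 2.19e-06). The metalloprotease inhibitors Timp3 and Timp2 rose by 4.74 ± 0.54 and 2.10 ± 0.25. Slc22a17, a lipocalin 2 receptor, rose by 1.92 ± 0.51 (limma adjusted p = 0.0188), but did not pass after median-centring (1.02, adjusted p = 0.0767) or quantile normalisation (1.02, adjusted p = 0.233). Fpr2, a receptor for cathelicidin peptides, fell by 2.11 ± 0.30 on the log2 scale (limma adjusted p = 0.00076). Itgb2, the CD18 chain, rose by 0.73 ± 0.19 as deposited (limma adjusted p = 0.0166) but was at -0.17 after median-centring. After median-centring and after quantile normalisation 3 of the 10 were called higher.

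The sorting gates and the transcripts did not match in every respect. Ly6g, the marker excluded in the bone marrow gate, had 71.25, 139.6, 76.55 and 80.88 normalised counts there and 0 to 4.376 in small intestine. Ly6c2, whose protein was excluded too, had 6630 to 9609 in bone marrow and 12.03 to 20.15 in small intestine. Of 11 mature neutrophil genes, 5 fell, 1 rose and 5 did not pass. Their summed normalised count was 117826 to 217181 in bone marrow and 2123 to 3498 in small intestine, and 1 gene (Stfa3) was at 0 in all bone marrow libraries. Most of the bone marrow sum was S100a9 and S100a8, the calprotectin subunits, which differed by -8.46 ± 0.25 and -8.77 ± 0.50. S100a8 had 19689 in BM_4 against 70880 to 91869 in the other 3. S100a8 did not pass with limma voom on the recovered reads (adjusted p = 0.0832). Csf3r, the G-CSF receptor, fell by 2.66 ± 0.19, whereas Cxcr2, the chemokine receptor of mature neutrophils, was at -0.32 ± 0.22 (limma adjusted p = 0.301) and passed only after median-centring (-1.22, adjusted p = 0.0288) among the scalings. Padi4, an enzyme of extracellular trap formation, rose by 1.04 ± 0.25 (limma adjusted p = 0.0125), but was at 0.14 after median-centring (adjusted p = 0.832). With quantile normalisation Padi4 was at 1.05 (limma adjusted p = 0.0062). Without SI_11, 2 of the list were called higher. The part of neutrophils or their precursors in the levels of the 8 genes was not tested.

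Eosinophil markers had no common direction, and several were low in 1 tissue, such as Il5ra (mean 11.04) in bone marrow and Epx (20.59) in small intestine. Of 10, 5 fell (Epx, Prg2, Prg3, Ear1 and Ear2), 4 rose (Siglecf, Ccr3, Il5ra and Alox15) and 1 did not pass (Ear6). Their sum was 2703 to 4731 in bone marrow and 33421 to 46193 in small intestine, there mostly Alox15 (mean 19775) and Ccr3 (16351). Siglecf, used in both sorts, had a mean of 579.9 in bone marrow and 3076 in small intestine. Of the 7 monocyte markers 2 fell and 2 rose, with a sum of 7996 to 11221 in bone marrow and 1663 to 1992 in small intestine. Of the 8 macrophage and dendritic markers 7 rose, of the 8 epithelial markers all 8, and of the 6 fibroblast markers 5. Of 6 erythroid markers 5 fell, and of 6 B and plasma cell markers 2 fell and 1 rose. After median-centring the rises of C1qb (0.73, limma adjusted p = 0.224), C1qc (0.45), Cd68 (0.05) and Cx3cr1 (0.42) did not pass. Mrc1, Ccr2, Irf8, Ms4a1, Klf1 and Ear6 then passed as falls. With quantile normalisation C1qb, C1qc and Cd68 passed as rises, and Cx3cr1 and Pdgfra did not. Ccr2, Ms4a1 and Klf1 passed there as falls. Epithelial marker sums were 65.07 to 109.7 in bone marrow and 4950 to 33310 in small intestine, and no marker of these lists was at 0 in all libraries of a tissue. Libraries held 11508002 to 21289164 reads in genes, and ribosomal RNA took 18.2% to 22.7% of them in bone marrow and 9.37% to 18.5% in small intestine.

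The 5 genes outside the 8 whose profile over the 8 libraries was most like their median were Nkg7, S100a9, Ly6c2, Ms4a3 and Fcnb. Likeness was the root mean square difference of centred log2 values, which was 0.344 for Nkg7, 0.362 for S100a9, 0.394 for Ly6c2, 0.540 for Ms4a3 and 0.616 for Fcnb. Nkg7, a granule membrane protein gene of cytotoxic lymphocytes, differed by -8.48 ± 0.22 (limma adjusted p = 1.81e-07). Against Retnlg alone, a comparison chosen after its values were seen, the nearest profile was that of Ccr1l1, a chemokine receptor-like gene, at 0.227, with a difference of 6.90 ± 0.47 (limma adjusted p = 1.36e-05).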

How the data were processed

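Single-end RNA-seq reads were counted per gene with the nf-core/rnaseq pipeline on GRCm38 (Ensembl release 86) by the authors. To these counts the authors applied DESeq2's variance stabilisation in R 4.0.3. The deposited values are therefore log2-like, with low counts compressed. Which aligner the pipeline ran, and its strand setting, were not given in the sources used here. Column names give the tissue but match no single sample, so libraries carry the column names.

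The transformation was inverted from its lowest value (0.92971568). Multiplied by size factors of 0.721 to 1.53, 100% of values were whole reads within 0.05. Libraries held 11508002 to 21289164 reads in genes, and 22177 genes had a mean under 10 reads, which limits precision for low genes and for Mmp8. Since the deposited unit is log2, limma 3.58.1 in R 4.3.3 (constant prior, no covariate, no filter) replaced the count model. P-values were adjusted by Benjamini-Hochberg over 38392 genes, with a threshold of 0.05, and the fit was tested on simulated data. Exon lengths and coordinates came from GENCODE M21. Python 3.11.15, numpy 2.4.6, pandas 2.3.3 and matplotlib 3.10.9 were used.

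The 8 genes and all lists were chosen with earlier results of these data known. Genes that could be named were the 8, any gene of a list of at most 12, the extremes, exceptions and 3 most abundant genes of longer lists, and the 5 most similar profiles. Mmp25 and Ccr1l1 were chosen after their values were seen. Like level means a mean within 0.5 log2 units. Alternatives were limma voom, an intensity trend, median-centring, quantile normalisation, a filter, pseudocounts of 1 and 5, a null of 1 log2 unit, scaling by total reads and leaving out each library.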

Additional observations from a re-analysis of the deposited data

Results flagged for a closer look

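A library was set apart from the other 3 of its tissue when its gap to the nearest one, divided by the range of the 4, exceeded what Dixon's test allows 4 values at the 95% level. This held for 7 of 134 groups examined, where chance gives about 1 in 20, or 6.7, and for none of the 16 groups of the 8 genes. In bone marrow these were Mmp25, lowest in BM_1 (0.849), S100a8, lowest in BM_4 (0.832), Padi4, highest in BM_3 (0.927), Itgb2, lowest in BM_5 (0.877), and Fpr2, lowest in BM_1 (0.866). In small intestine SI_6 was lowest for Trf (0.851) and highest for Nkg7 (0.885).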

How the results depend on the processing

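No paired analysis was possible because the columns of the libraries carry no replicate number that both tissues share. Median-centring over the better-covered genes (10 reads or more on average) was added after seeing the data. The differences of the 7 genes other than Mmp8 kept their sign and passed the threshold in all 18 settings. Mmp8 kept its sign and passed in 15, but not with median-centring (0.18), quantile normalisation (0.50) or a null of 1 log2 unit (1.08). Calls higher in small intestine fell for the 8 genes from 2 to 1 under these 3 settings, for primary granule genes from 1 to 0 and for other secondary and tertiary granule genes from 7 to 4 under median-centring and the null of 1 log2 unit. For mature neutrophil genes the number of such calls was 2 with limma voom and without SI_11, and 0 under median-centring and the null of 1 log2 unit, and for regulators it was 1 under both. For paralogues it was 4 with the filter of 10 reads and 2 with the null of 1 log2 unit, and for receptors, partners and inhibitors 3 under median-centring, quantile normalisation and the null of 1 log2 unit. Median-centring lowers all differences by one amount, and it changed the errors of the fit as well. The limma adjusted p of Camp went from 1.12e-07 at -9.62 to 1.23e-53 at -10.52. The part of each in the lost calls, and the other causes, were not tested. Against 1 log2 unit 5076 of all genes passed, fewer by construction. Scaled to total reads, Chil3 had 34397 normalised counts in bone marrow. Outside mitochondrial and ribosomal RNA the share of the 8 genes was 1.5% for bone marrow and 0.329% for small intestine, against 1.18% and 0.288% of all reads.

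Leaving out a library gave 10982 to 14670 genes called and differences of 0.86 to 1.22 for Mmp8, -7.32 to -6.48 for Cd177 and 6.63 to 7.26 for Retnlg. Without 1 library, 1 to 2 mature neutrophil genes were called higher. Normalised counts of 13.04 to 94.08 for 7 of the genes in small intestine limit the precision of their folds.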
